A study of Mus musculus with 92 samples.

Results

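Livers of 6-month-old female HET3 mice fed a Low Isoleucine diet were compared with livers of females of the same age fed the Control diet. HET3 mice are a genetically heterogeneous stock, so the animals differ in genotype. The comparison used 15 of the 92 libraries of the series: 7 Low Isoleucine and 8 Control, chosen by the age, sex and diet in their labels. An eighth library labelled as Low Isoleucine, replicate 3, was left out because Kdm5d, a gene of the Y chromosome, stood at 47.9 CPM in it, while the 15 libraries used had between 0 and 0.524 CPM. CPM are counts per 1000000 of the scaled library total. All animals were housed at 22 °C and were killed after a 16 h fast, so every level below is that of a fasted liver. Per the labels, diets began at 9 weeks of age and ended at 6 months, whereas the series description gives 13 weeks on diet. Other females served for 2 further comparisons: 8 animals on a Low Amino Acid diet, a restriction of amino acids in total, at 6 months, and Control and Low Isoleucine animals killed at 24 months, 8 of each, whose diets began at 6 months.

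Isoleucine is an essential branched-chain amino acid, which animals take from food. Shortage of an amino acid is sensed in cells by the kinase GCN2, which acts through the transcription factor ATF4, and by regulators of the kinase mTORC1. In liver, the supply of amino acids is also tied to lipid synthesis, to amino acid breakdown and to hormones such as FGF21 and IGF1.

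The libraries held 14.3 to 26.6 M counts (M, 1000000) in the Control group and 18.9 to 27.2 M in the Low Isoleucine group, summed over the 17275 genes used. Median Spearman correlations with the rest of the own group lay between 0.972 and 0.986. The lowest were 0.976 in Control replicate 7 and 0.972 in Low Isoleucine replicate 8. Of 7 hepatocyte markers in the usable lines, which include Alb (albumin), Hnf4a and Glul, all were detected and none passed an unadjusted p under 0.05. Labels do not say whether animals shared a cage or a litter. Several titles share a number whose meaning is not given: Low Isoleucine replicates 1, 2 and 5 carry the number 3, and replicates 6 and 7 the number 9. In the Control group replicates 4, 5 and 6 carry the number 5, and replicates 3 and 7 the number 12.

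In 11849 genes tested with edgeR's quasi-likelihood test, 7 genes were called higher and 18 lower on Low Isoleucine, that is, with a Benjamini-Hochberg adjusted p under 0.05. These are 0.0591% and 0.152% of the genes tested, 0.211% together. All 25 are protein-coding. In 16 of the 25 the libraries of the groups did not overlap, which was the case for 0.321% of all genes tested. The lower genes included the estrogen receptor Esr1, the transcriptional repressor Bhlhe40, the Langerhans-type dendritic cell lectin Cd207, the thymidine kinase Tk1, the tryptophan dioxygenase Ido2 and the growth hormone receptor Ghr. Among the higher genes were the antimicrobial peptide Defb1, the cytokine signalling inhibitor Socs2 and the glycine decarboxylase Gldc. The number of calls was unstable: with 1 library left out at a time it lay between 4 genes, without Low Isoleucine replicate 4, and 39 genes, without Low Isoleucine replicate 1. With the left-out replicate 3 included, 0 genes were called higher and 3 lower. In limma's voom fit with the title number as a random block, 2 genes were called higher and 12 lower. Of the 25 genes, that fit did not call Socs2, Asap2, Map4k4, Trim2, Gldc, Proser2, Cela1, Rab20, Gulo, Lect2, Paox, Ghr and Acsm5 (adjusted p 0.0514 to 0.102).

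**Figure D1:**
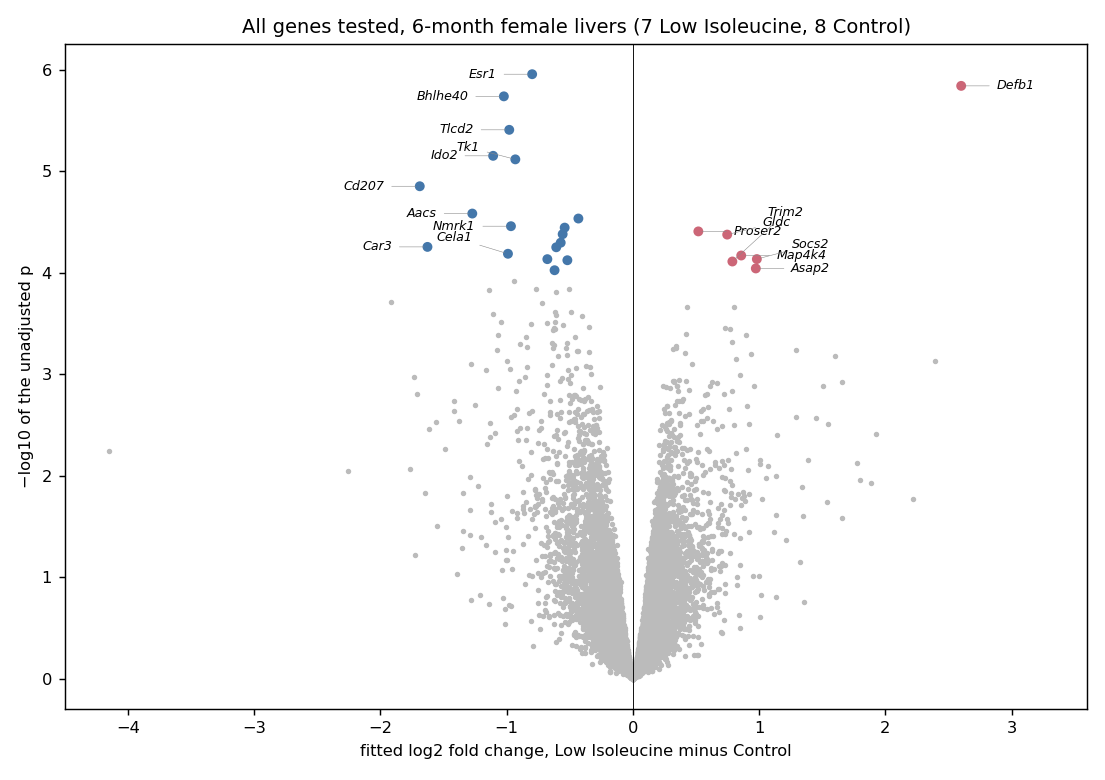
Each point is 1 of the 11849 genes tested, placed by its fitted log2 fold change (Low Isoleucine minus Control) and the negative log10 of its unadjusted p. The 7 genes called higher are red, the 18 called lower are blue and the others grey; Esr1 has the smallest p, and Defb1 the largest fold change among the called genes.

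Esr1 (chromosome 10, 4611593 to 5005614 in GRCm38) encodes estrogen receptor alpha, the nuclear receptor through which estradiol acts on hepatocytes. In the Control libraries it had between 68.6 and 113.3 CPM, with a median of 91.2. In the Low Isoleucine libraries it had between 43.4 and 65.3 CPM, with a median of 50.9. Every Low Isoleucine library lay below every Control library. The means were 91.2 ± 14.8 CPM (SD, n = 8) and 52.3 ± 7.44 CPM (SD, n = 7), and the fitted log2 fold change was -0.80 with an SE of 0.11 and an adjusted p of 0.00719. This call held in every fit that left out 1 library and in all other settings tried. The library left out of the comparison had 40.9 CPM. Of 40 tested genes of the sex steroid and nuclear receptor list, Esr1 was the only one called, 7, Esr1 included, were lower at an unadjusted p under 0.05 and 1 was higher; over all genes tested those shares were 6.87% and 5.35%. The median log2 fold change of the list was -0.06, against -0.0036 over all genes tested.

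Defb1 (chromosome 8, 21776599 to 21795185) encodes beta-defensin 1, a small antimicrobial peptide of epithelia. It ranged from 0.205 to 1.93 CPM in Control libraries with a median of 0.656, and from 2.83 to 8.74 CPM in Low Isoleucine libraries with a median of 3.77. The groups did not overlap, although the gene was at a low level in both. The fitted log2 fold change was 2.60 (SE 0.37, adjusted p 0.00719), and the call held with each library left out in turn. Replicate 3, which was not used, had 0.0685 CPM, below all 15 libraries, and with it in the fit the adjusted p was 0.108.

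**Figure D2:**
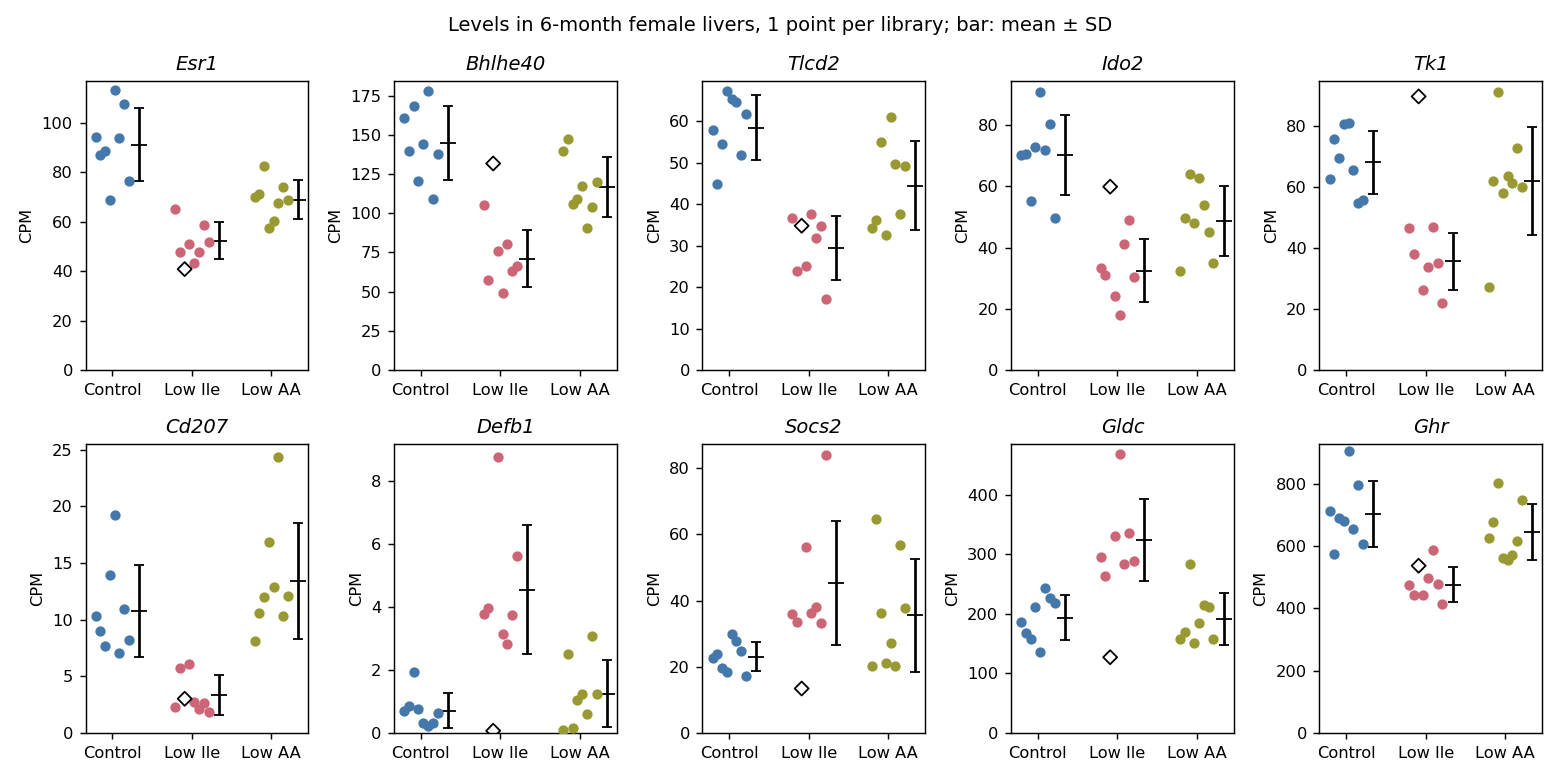
Levels in CPM of 10 called genes in 6-month female livers, 1 point per library, for Control, Low Isoleucine (Low Ile) and Low Amino Acid (Low AA), with the mean and SD as a bar beside each group. The open diamond is the library labelled Low Isoleucine replicate 3, which enters neither mean nor test; all 7 Low Isoleucine points of Esr1 lie below the Control points.

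Bhlhe40 (chromosome 6, 108660629 to 108666925) encodes a basic helix-loop-helix repressor that takes part in the circadian clock and is induced by several stresses. Control libraries had 109.3 to 178 CPM with a median of 142, and Low Isoleucine libraries 49.4 to 105.2 CPM with a median of 66.2. The groups did not overlap. The log2 fold change was -1.02 (SE 0.15, adjusted p 0.00719), and it stayed called with each of the 15 libraries left out. Cipc, which encodes a protein that inhibits CLOCK, was lower by a smaller amount. It had 68.9 to 85.7 CPM in Control and 39.2 to 66.2 CPM in Low Isoleucine libraries, with a log2 fold change of -0.54 (SE 0.10, adjusted p 0.0355). Cipc lies outside the rule for named genes and was chosen after its values were seen. Its call was lost in 7 of 15 fits with 1 library left out: without Control replicates 1 and 5 and without Low Isoleucine replicates 2, 4, 5, 7 and 8, with adjusted p up to 0.0783.

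Among other clock genes, Arntl, Per3 and Wee1 varied widely between Low Isoleucine libraries. The clock runs on CLOCK, NPAS2 and ARNTL (BMAL1), which activate the Per and Cry genes, Dbp, Tef and Nr1d1, whose products in turn act on each other. Of 21 clock genes tested, Bhlhe40 was called lower; 9, Bhlhe40 included, were lower and 3 higher at an unadjusted p under 0.05. The 9 and 3 are 42.9% and 14.3% of the list, against 6.87% and 5.35% of all genes tested. Over all genes tested, 0.152% were called lower. The median log2 fold change of the list was -0.44. The next genes were picked after their values were seen. Arntl had 1.503 to 6.25 CPM in Control libraries. Low Isoleucine replicates 4, 5, 7 and 8 had 12.7, 32.1, 12.4 and 11 CPM, above all Control libraries. Low Isoleucine replicates 1, 2 and 6 had 2.09, 4.76 and 5.71 CPM, within the Control range. The fold change of Arntl did not pass the test (1.66, SE 0.43, adjusted p 0.133).

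Per3 and Wee1 were below the Control range in the libraries where Arntl was above it. Per3, a period gene, had 106.5 to 189 CPM in Control libraries. Low Isoleucine replicates 4, 5, 7 and 8 had 29.6, 42.2, 52.6 and 73.2 CPM, replicates 2 and 6 had 81.4 and 103.4 CPM, and replicate 1 had 175 CPM, so 6 of 7 lay below every Control library. Wee1, a cell cycle kinase under clock control, had 14.4 to 28.9 CPM in Control libraries and 3.53, 4.54, 4.17 and 7.17 CPM in Low Isoleucine replicates 4, 5, 7 and 8. Nr1d1, another repressor of the clock, overlapped between the groups, with 35.1 to 128 CPM in Control and 72.6 to 133 CPM in Low Isoleucine libraries. Neither Per3 nor Wee1 passed the test: Per3 had a log2 fold change of -0.81 (SE 0.28, adjusted p 0.245) and Wee1 one of -1.28 (SE 0.32, adjusted p 0.117). No source used here gives the hour at which each animal was killed. Bhlhe40, itself a clock gene, was below all Control libraries in Low Isoleucine replicates 1, 2 and 6 as well. It had 105.2, 57.2 and 80.4 CPM there, against 109.3 CPM or more in Control. Esr1 had 65.3, 47.8 and 48.0 CPM in those 3 replicates, also below every Control library. Ciart, another clock gene, had 17.4 to 38.1 CPM in Control libraries and 49.95, 6.04 and 12.4 CPM in those 3 replicates. So replicates 1, 2 and 6 were not like Control in every clock gene. The part of the clock genes in the other called differences was not tested.

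The start of Per3 is shown because 6 of 7 Low Isoleucine libraries lay below Control for that gene and because it holds a repeated D-box, the site bound by the clock output factors DBP, TEF and HLF. Below are the 250 bases before its annotated start, from the RefSeq promoter table for GRCm38.p6, at chr4:151044666-151044915 on the minus strand, written 5′ to 3′ with the D-box matches in capitals.
Per3: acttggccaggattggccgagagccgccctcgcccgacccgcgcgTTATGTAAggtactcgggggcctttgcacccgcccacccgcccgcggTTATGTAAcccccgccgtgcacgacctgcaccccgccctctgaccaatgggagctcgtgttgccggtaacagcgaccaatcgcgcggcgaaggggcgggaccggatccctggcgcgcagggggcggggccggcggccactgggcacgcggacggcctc
The letters TTATGTAA, searched on both strands, begin at positions -205 and -158 from the start. They occur in 0.819% of the 32851 promoter windows of that length that were searched. The match describes the sequence only. Dbp itself had 49.9 to 139.7 CPM in Control libraries and 27.5, 24.1 and 41.7 CPM in Low Isoleucine replicates 4, 5 and 8; replicate 7, at 53.2 CPM, was within the Control range.

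**Figure D3:**
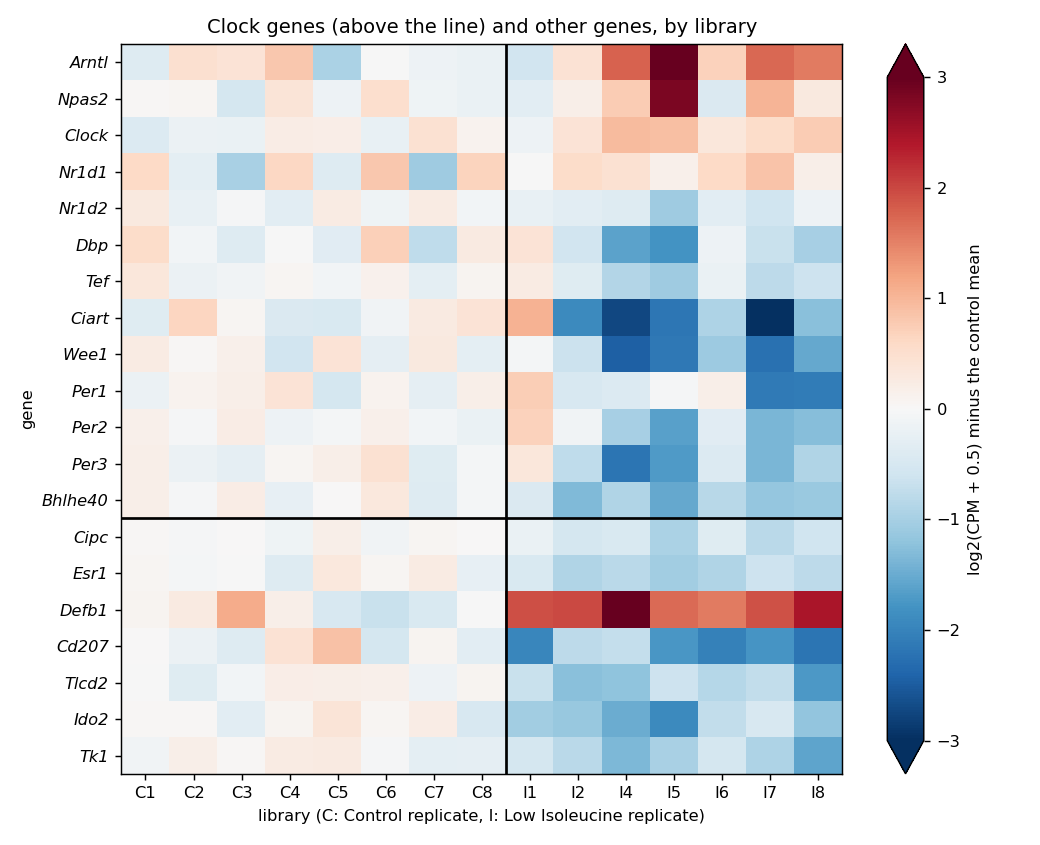
Colour gives log2(CPM + 0.5) of each gene in each library minus the mean of the 8 Control libraries, with clock genes above the horizontal line and 7 other genes below it; colours are cut at 3 in each direction. Arntl is high and Per3 and Wee1 are low in Low Isoleucine replicates 4, 5, 7 and 8. Esr1, Defb1 and Cd207 differ from Control in all 7 Low Isoleucine libraries.

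Of 23 tested genes of the growth hormone, prolactin and IGF1 list, Ghr was called lower and Socs2 higher. At an unadjusted p under 0.05, 2 were lower and 2 higher (8.70% each, against 6.87% and 5.35% of all genes tested), and the median log2 fold change was -0.03. Ghr (chromosome 15, 3317760 to 3583492), the receptor for growth hormone, was lower: 574 to 903 CPM in Control, median 685, and 413 to 586 CPM in Low Isoleucine libraries, median 475. Only Low Isoleucine replicate 6, at 586 CPM, reached the Control range. Its log2 fold change was -0.56 (SE 0.10, adjusted p 0.0355). Socs2 (chromosome 10, 95385362 to 95417180), which is induced by growth hormone signalling and inhibits it, was higher, with 17.3 to 29.8 CPM in Control and 33.1 to 83.9 CPM in Low Isoleucine libraries, and no overlap. Its log2 fold change was 0.98 (SE 0.19, adjusted p 0.0398). Both calls depended on single libraries: that of Ghr was lost in 8 of 15 fits with 1 left out (adjusted p up to 0.0932) and that of Socs2 in 12 of 15 (up to 0.100). Cish, another inhibitor of that pathway, had 51.5 CPM in Low Isoleucine replicate 8 and at most 20.8 CPM in the other libraries, and its log2 fold change of 0.80 did not pass (adjusted p 0.372). Igf1, the main hormone made by liver under growth hormone, had 747 to 1547 CPM in Control and 676 to 925 CPM in Low Isoleucine libraries (log2 fold change -0.24, SE 0.15, adjusted p 0.543).

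Amino acid metabolism had 1 call in each direction among 50 genes tested. Gldc (chromosome 19, 30098447 to 30175429), the decarboxylase of the mitochondrial glycine cleavage system, had 136.0 to 244 CPM in Control and 263 to 469 CPM in Low Isoleucine libraries, without overlap (log2 fold change 0.75, SE 0.14, adjusted p 0.0355). Ido2 (chromosome 8, 24531892 to 24576333), one of the enzymes that open tryptophan, had 49.6 to 90.8 CPM in Control, median 71.2, and 17.9 to 49.1 CPM in Low Isoleucine libraries, median 31.0. The ranges of Ido2 did not overlap, and the log2 fold change was -1.11 (SE 0.18, adjusted p 0.0150). Its adjusted p was 0.0505 without Low Isoleucine replicate 4 and under the threshold in the other 14 fits. The call of Gldc was lost in 10 of 15 such fits, with adjusted p up to 0.0835. Paox, a polyamine oxidase, was lower, at 45.0 ± 6.79 CPM in Control and 30.2 ± 3.95 CPM in Low Isoleucine libraries (SD, n = 8 and 7; log2 fold change -0.57, adjusted p 0.0390), and lost its call in 12 of 15 fits (adjusted p up to 0.0835).

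None of 29 branched-chain amino acid breakdown genes was called, and 4 were lower and 1 higher at an unadjusted p under 0.05. The 4 and 1 are 13.8% and 3.45% of the list, against 6.87% and 5.35% of all genes tested. Bcat2, the mitochondrial transaminase that starts this route, had 24.6 to 49.0 CPM in Control and 29.8 to 36.8 CPM in Low Isoleucine libraries. Bckdk, the kinase that inhibits the branched-chain ketoacid dehydrogenase, had 16.9 to 21.8 and 15.9 to 21.8 CPM. The ranges of both genes overlapped, with log2 fold changes of -0.01 (SE 0.15) and -0.03 (SE 0.08). None of 37 targets of ATF4 and the integrated stress response was called either; the median log2 fold change was -0.01. Asns, asparagine synthetase and a much used ATF4 target, was too low to enter the test, with 0.0367 to 1.11 CPM in Control and 0.223 to 1.07 CPM in Low Isoleucine libraries. Nupr1, another such target, had a fitted log2 fold change of -4.15 that rested on Control replicate 2, at 139 CPM, and its adjusted p was 0.210. Fgf21 had 6.97 to 27.97 CPM in Control libraries, and 10.1 to 27.6 CPM in 6 Low Isoleucine libraries with 0.757 CPM in replicate 8 (log2 fold change 0.10, SE 0.44). Of 42 amino acid sensing genes, on a list of GCN2, eIF2 and mTORC1 genes, none was called. At an unadjusted p under 0.05, 4 were higher and 3 lower (9.52% and 7.14%, against 5.35% and 6.87% of all genes tested). The smallest p were those of Fnip2 (log2 fold change -0.54, adjusted p 0.178) and Fnip1 (-0.33, adjusted p 0.197), partners of folliculin.

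Genes of sterol synthesis were mostly lower without passing the test, and those of fatty acid synthesis less uniformly so. Of 25 genes of cholesterol synthesis and uptake, 23 had fold changes below zero and 8 were lower at an unadjusted p under 0.05, which is 32.0% of the list against 6.87% of all genes; none was higher. Insig1, an anchor that holds back SREBP processing and is itself an SREBP target, had the smallest p of the list, with 128 to 288 CPM in Control, median 228, and 81.04 to 174 CPM in Low Isoleucine libraries, median 86.8. Low Isoleucine replicates 2, 5 and 7 overlapped the Control range. The log2 fold change was -0.94 (SE 0.19, adjusted p 0.0543). Stard4, a carrier of cholesterol, had 139.4 ± 43.0 CPM in Control and 79.1 ± 16.99 CPM in Low Isoleucine libraries (SD, n = 8 and 7; log2 fold change -0.81, adjusted p 0.0861).

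Of 30 genes of fatty acid synthesis, 8 were lower and 1 higher at an unadjusted p under 0.05, none was called, and the median was -0.10. Fold changes were below zero in 20 of the 30, against 6016 of all 11849 genes tested. The summed level of the list was 6497 to 10080 CPM in Control, median 7374. In Low Isoleucine libraries it was 6044 to 12790 CPM, median 7846. The 8 and 1 are 26.7% and 3.33% of the list, against 6.87% and 5.35% of all genes tested. Dgat2, which makes triglyceride, had the smallest p (log2 fold change -0.53, SE 0.13, adjusted p 0.100). Srebf1, the transcription factor of the pathway, had 100.8 to 281 CPM in Control and 35.8 to 129 CPM in Low Isoleucine libraries, and Fasn, fatty acid synthase, 163 to 377 and 82.6 to 243 CPM. Both overlapped, with log2 fold changes of -1.07 (SE 0.28, adjusted p 0.136) and -0.80 (SE 0.22, adjusted p 0.161). Against the Low Amino Acid libraries, Srebf1 was called lower on Low Isoleucine (log2 fold change -1.40, SE 0.30, adjusted p 0.0293). Aacs, which activates acetoacetate for lipid synthesis, was called lower: 16.6 to 42.1 CPM in Control and 5.17 to 18.9 CPM in Low Isoleucine libraries, where replicate 1 alone overlapped (log2 fold change -1.27, SE 0.23, adjusted p 0.0355). Leaving out Control replicate 1 or 5 or Low Isoleucine replicate 2, 4, 5 or 7 ended that call, with adjusted p up to 0.0783. Cyp4a14, a fatty acid hydroxylase, had 3290 to 7620 CPM in Control and 6013 to 10030 CPM in Low Isoleucine libraries (log2 fold change 0.73, adjusted p 0.0861), and none of 40 genes of fatty acid oxidation and ketogenesis was called.

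Tk1 (chromosome 11, 117815526 to 117826092), which makes thymidine monophosphate for DNA synthesis, had 54.8 to 80.8 CPM in Control and 22.1 to 46.9 CPM in Low Isoleucine libraries, without overlap (log2 fold change -0.93, SE 0.15, adjusted p 0.0150). The adjusted p was 0.0505 without Low Isoleucine replicate 4. Of 29 cell cycle genes Tk1 alone was called; 6 were lower, Tk1 included, and none higher at an unadjusted p under 0.05. The 6 are 20.7% of the list, against 6.87% of all genes tested that were lower at that p. Over all genes tested, 0.152% were called lower. The others of the 6 were Mcm3, Mcm4, Mcm5 and Mcm6, subunits of the replicative helicase, and Ccnd2. Tlcd2 (chromosome 11, 75461715 to 75470899), a membrane protein, had 44.8 to 67.2 CPM in Control and 17.1 to 37.6 CPM in Low Isoleucine libraries, again without overlap (log2 fold change -0.98, SE 0.15, adjusted p 0.0115), and its adjusted p was 0.0505 without that same replicate. Cdkn1a, which encodes the cell cycle inhibitor p21, had 1.04 to 20.5 CPM in Low Isoleucine and 0.229 to 7.07 CPM in Control libraries. It was above all Control libraries in Low Isoleucine replicates 4, 5 and 8 (log2 fold change 1.89, SE 0.67, adjusted p 0.255). Of 24 p53 targets and cell cycle inhibitors, 5 were higher and none lower at an unadjusted p under 0.05, and none was called. The 5 are 20.8% of that list, against 5.35% of all genes tested that were higher at that p.

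Cd207 (chromosome 6, 83671215 to 83677857) encodes langerin, a lectin of Langerhans cells and some dendritic cells. It had 7.02 to 19.2 CPM in Control, median 9.67, and 1.87 to 6.05 CPM in Low Isoleucine libraries, median 2.64, and the groups did not overlap. Its log2 fold change was -1.69 (SE 0.29, adjusted p 0.0237). The adjusted p rose past the threshold, to at most 0.0647, without Control replicate 1, Low Isoleucine replicate 5 or Low Isoleucine replicate 7. Of 13 dendritic cell markers tested, Cd207 was called, and 6, Cd207 included, were lower and none higher at an unadjusted p under 0.05. The 6 are 46.15% of those tested, against 6.87% of all genes tested that were lower at that p. Over all genes tested, 0.152% were called lower. The summed level of the 18 markers in the usable lines was 132 to 228 CPM in Control and 90.2 to 172 CPM in Low Isoleucine libraries. In whole liver, fewer cells of a type and less RNA per cell cannot be told apart.

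Markers of Kupffer cells and other macrophages were lower without a call: 22 of 23 had fold changes below zero, and 8 were lower and 1 higher at an unadjusted p under 0.05. The 8 and 1 are 34.8% and 4.35% of the list, against 6.87% and 5.35% of all genes tested. Adgre1, the surface protein F4/80, had 14.4 to 36.0 CPM in Control and 10.1 to 22.9 CPM in Low Isoleucine libraries (log2 fold change -0.68, SE 0.21, adjusted p 0.210). Csf1r, the receptor for macrophage colony-stimulating factor, had a log2 fold change of -0.47 (adjusted p 0.299). The summed level of the macrophage markers was 870 to 1545 CPM in Control and 756.5 to 1246 CPM in Low Isoleucine libraries. Of 19 markers of stellate cells and fibroblasts, 4 were lower and none higher at an unadjusted p under 0.05 (21.1%), and none was called: Colec11 (log2 fold change -0.36), Acta2 (-0.86), Myh11 (-0.69) and Lum (-0.40). At that p, Cd79a was lower among 8 B and plasma cell markers, Prom1 was lower among 9 cholangiocyte markers, and among 6 neutrophil markers S100a8 was lower and Lcn2 higher; none was called. None of 24 endothelial markers, 9 T and NK cell markers or 4 erythrocyte markers passed an unadjusted p under 0.05. Lum and Myh11 were named after their values were seen. The part of the macrophage, dendritic and stellate cell markers in the other called differences was not tested.

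The remaining called genes encode enzymes, secreted proteins and signalling proteins. Car3, carbonic anhydrase 3, which is on the list of adipocyte markers, was lower at 321 ± 166 CPM against 995 ± 361 CPM in Control (SD, n = 7 and 8; log2 fold change -1.63, SE 0.31, adjusted p 0.0390). Low Isoleucine replicate 6, at 604 CPM, was above the lowest Control library, at 572 CPM. Of the other adipocyte markers, Lipe and Pck1 were tested and not called, and Adipoq, Lep, Plin1 and Retn summed to at most 0.451 CPM in any of the 15 libraries. Cela1, an elastase, was lower, with 9.96 to 27.4 CPM in Control and 5.45 to 9.13 CPM in Low Isoleucine libraries (log2 fold change -0.99, adjusted p 0.0398). The other pancreatic acinar markers summed to at most 0.596 CPM in any of the 15 libraries, and Prss2 and Pnlip, which encode trypsinogen and pancreatic lipase, had no count. Nmrk1, which makes NMN from nicotinamide riboside, had 24.3 to 46.4 CPM in Control and 10.7 to 27.4 CPM in Low Isoleucine libraries (log2 fold change -0.97, adjusted p 0.0355).

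Lect2, a chemotactic protein secreted by hepatocytes, and Gulo, the last enzyme of vitamin C synthesis, are on the list of pericentral genes. Lect2 had 124 to 199 CPM in Control and 82.7 to 121 CPM in Low Isoleucine libraries, and Gulo 408 to 744 and 275 to 427 CPM. Their log2 fold changes were -0.61 (SE 0.12, adjusted p 0.0390) and -0.62 (SE 0.12, adjusted p 0.0447). Of 14 pericentral genes tested these were the ones called, and 3 were lower and 1 higher at an unadjusted p under 0.05; of 14 periportal genes, 2 were higher and none lower. The pericentral shares were 21.4% lower and 7.14% higher, and 14.3% of the periportal list were higher. Over all genes tested, 6.87% were lower and 5.35% higher at that p, and 0.152% were called lower. Rab20, a small GTPase, was lower, with 7.24 to 11.8 CPM in Control and 4.10 to 7.21 CPM in Low Isoleucine libraries (log2 fold change -0.68, adjusted p 0.0398). Fggy and Acsm5, a carbohydrate kinase and an acyl-CoA synthetase that fall outside the rule for named genes, were also called lower, with log2 fold changes of -0.43 and -0.52.

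Called higher were also Trim2, a ubiquitin ligase (38.6 to 87.1 CPM on Low Isoleucine, 27.5 to 47.9 CPM in Control; log2 fold change 0.79, adjusted p 0.0398), and Map4k4, a stress-activated kinase (23.4 to 51.2 and 12.6 to 25.3 CPM; 0.86, adjusted p 0.0398). Asap2, an activator of ARF GTPases, rose as well (8.85 to 23.8 and 4.70 to 8.98 CPM; 0.97, adjusted p 0.0447). Proser2, a proline- and serine-rich protein, had 26.9 to 38.4 CPM on Low Isoleucine and 17.04 to 26.8 CPM in Control libraries, without overlap (0.52, adjusted p 0.0355). Low Isoleucine replicate 5 had the highest level of all 4 genes. The calls of Car3, Cela1, Nmrk1, Lect2, Gulo, Rab20, Fggy, Acsm5, Trim2, Map4k4, Asap2 and Proser2 were lost in 8 to 13 of the 15 fits with 1 library left out, with adjusted p of up to 0.130. Gstm2, a glutathione transferase, was not called: it had 17.6 to 25.9 CPM in 7 Control libraries and 45.8 CPM in Control replicate 5, and 33.0 to 50.7 CPM on Low Isoleucine (log2 fold change 0.80, SE 0.17, adjusted p 0.0753). Lhx6 (0.85, adjusted p 0.130), a transcription factor, Ppargc1a (0.17), Cyp7a1 (0.13) and Insig2 (0.51, adjusted p 0.451) were not called either.

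**Figure D4:**
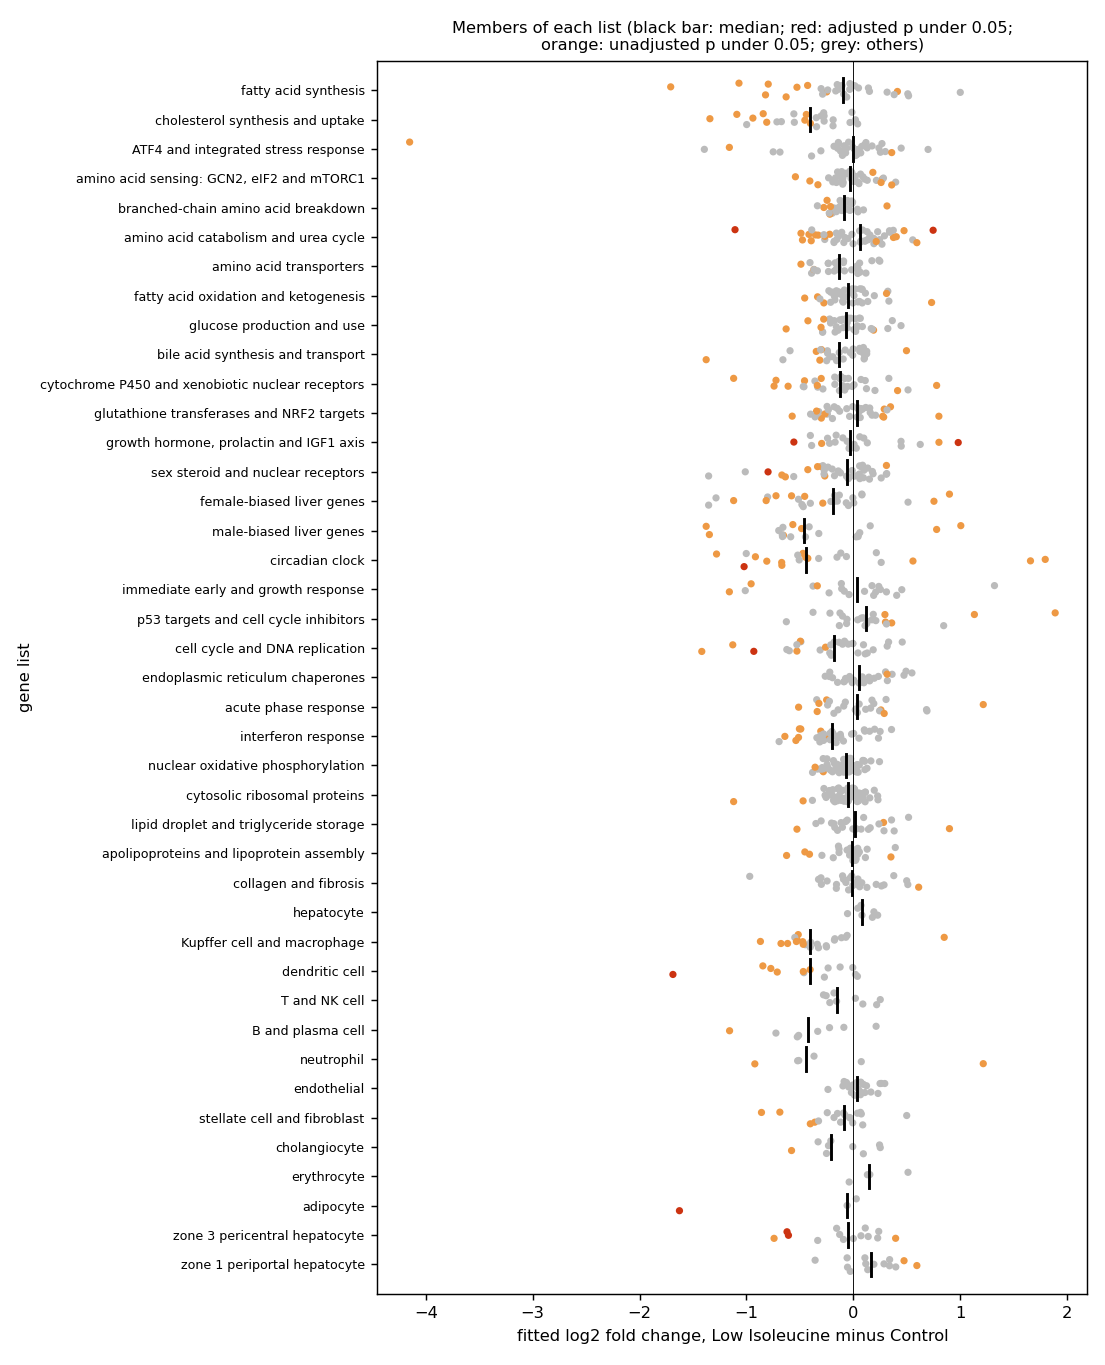
Each point is a tested member of a gene list, placed by its fitted log2 fold change (Low Isoleucine minus Control), with the list's median as a black bar. Red points have an adjusted p under 0.05 and orange ones an unadjusted p under 0.05. The medians of the cholesterol, circadian clock, Kupffer cell and dendritic cell lists lie between -0.40 and -0.47. So do those of the male-biased liver gene, neutrophil and B and plasma cell lists. The medians of the endothelial and ribosomal protein lists lie near zero.

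Females killed at 24 months gave a separate set of animals for the same contrast, with diets that began later and lasted longer per the labels. Low Isoleucine replicate 5 of that age held 7.82 M counts, against 19.65 to 24.46 M in the rest of its group, and was kept. Of the 25 genes called at 6 months, 24 had a fold change of the same sign at 24 months; the share was 62.4% over the 11762 genes tested at both ages. In 11 of the 25 the 24-month difference had the same sign and an unadjusted p under 0.05, against 12% of those genes. Bhlhe40 and Paox were called at 24 months too, where 0.33% of genes were called. Bhlhe40 had 107.7 ± 47.6 CPM in Control and 47.3 ± 10.2 CPM in Low Isoleucine libraries at that age (SD, n = 8 each; log2 fold change -1.19, SE 0.24, adjusted p 0.0428). Paox had 51.1 ± 11.2 and 26.5 ± 3.25 CPM (SD, n = 8 each; log2 fold change -0.94, SE 0.14, adjusted p 0.0260). Esr1 was at 92.3 ± 33.0 and 54.3 ± 9.27 CPM (SD, n = 8 each; log2 fold change -0.76, SE 0.20, adjusted p 0.0843), close in size to the difference at 6 months.

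The difference between the ages was tested as an interaction over 12447 genes, and edgeR's quasi-likelihood test called none, in either direction, or 0% of those tested. At an unadjusted p under 0.05 there were 881 genes (7.08%), while DESeq2 called 4 and limma's voom with quality weights 2. Among the 25 genes, 6 had an unadjusted interaction p under 0.05. Cd207 had a log2 fold change of -0.13 (SE 0.35) at 24 months and an interaction adjusted p of 0.433. Defb1 had one of 0.03 (SE 0.64) there and an interaction adjusted p of 0.431. For Socs2, the one gene with the opposite sign, the 24-month value was -0.37 (SE 0.34) and the interaction adjusted p was 0.433. Ido2, Paox and Cipc were the others of the 6.

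**Figure D5:**
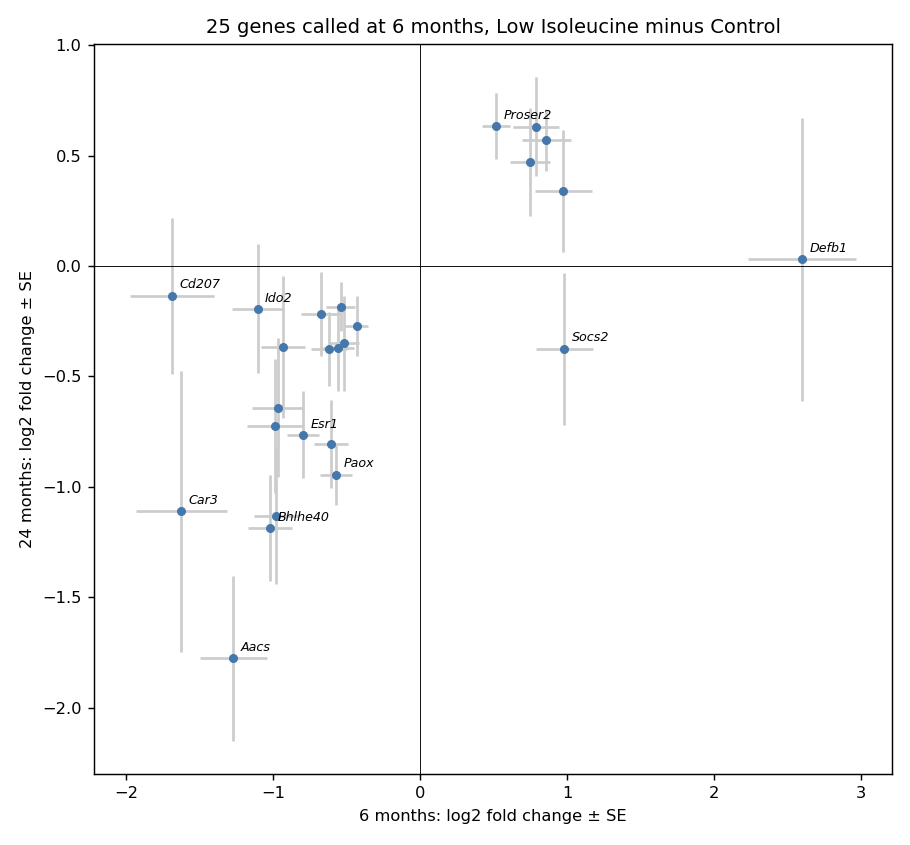
The 25 genes called at 6 months, with the log2 fold change of Low Isoleucine against Control at 6 months on the horizontal and at 24 months on the vertical axis; grey bars are 1 SE. All but Socs2 have the same sign at both ages, and Defb1, Cd207 and Ido2 lie near zero at 24 months.

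At 6 months the Low Isoleucine libraries were also set directly against the Low Amino Acid libraries, which asks how restriction of isoleucine alone differs from restriction of total amino acids. In 11845 genes, 65 were called higher and 135 lower on Low Isoleucine, 0.549% and 1.14% of those tested, 1.69% together. This comparison uses the same Low Isoleucine libraries as the one with Control, so the results are not independent. Among markers of Kupffer cells and macrophages 8 of 23 were called lower on Low Isoleucine and none higher, and 5 of 14 dendritic cell markers were lower. Adgre1 had 26.04 to 34.1 CPM on Low Amino Acid, above every Low Isoleucine library (log2 fold change -0.92, SE 0.15, adjusted p 0.0137). Cd207 had 8.14 to 24.4 CPM there, also without overlap (log2 fold change -2.02, SE 0.29, adjusted p 0.0119). Fcgr3, an immunoglobulin receptor of macrophages, differed by a log2 fold change of -0.84 (adjusted p 0.0119). Fndc5 (-1.47, adjusted p 0.0119), the precursor of irisin, and Corin (-0.58, adjusted p 0.0137), a protease, completed the 5 lower genes with the smallest adjusted p.

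The 5 higher genes with the smallest adjusted p were Nudt4, a diphosphoinositol polyphosphate phosphatase, Trim2, Mmd2, Zfp36l1, which binds AU-rich mRNA, and G6pc2, a glucose-6-phosphatase. Their log2 fold changes were 0.49, 0.84, 1.55, 0.55 and 1.54, with adjusted p of 0.0137 to 0.0142. Mmd2 had 1.98 to 6.98 CPM on Low Amino Acid, 6.11 to 22.1 CPM on Low Isoleucine and 8.13 to 39.7 CPM on Control. For Esr1, Bhlhe40 and Defb1, the mean of the Low Amino Acid libraries lay between the means of the Control and Low Isoleucine libraries. Esr1 had 69.0 ± 7.78 CPM there (SD, n = 8) and was lower on Low Isoleucine (log2 fold change -0.40, SE 0.09, adjusted p 0.0373). Bhlhe40 had 116.7 ± 19.03 CPM (SD, n = 8) and was also lower on Low Isoleucine (-0.72, SE 0.14, adjusted p 0.0216). Defb1 had 0.105 to 3.07 CPM and did not pass (1.85, adjusted p 0.0532). Arntl stood at 2.62 to 4.67 CPM and Per3 at 132 to 181 CPM in the 8 Low Amino Acid libraries. Low Isoleucine replicates 2, 4, 5, 6, 7 and 8 were outside both ranges. In replicates 2 and 6 Arntl was only a little above its range, at 4.76 and 5.71 CPM. Replicate 1 was below the range of Arntl, at 2.09 CPM, and within that of Per3. In this comparison Arntl (1.66, SE 0.40, adjusted p 0.0425) and Clock (0.56, SE 0.14, adjusted p 0.0438) were called higher on Low Isoleucine. Of 21 clock genes, 2 were thus called higher and 1, Bhlhe40, lower, against 0.549% and 1.14% of all genes tested.

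The authors' deposited table for females lists 16 genes with an adjusted p under 0.05 for Low Isoleucine at 6 months, or 0.0931% of its 17192 genes, and 9 of the 16 were among the genes tested here. Of those 9, Esr1, Bhlhe40, Map4k4 and Cipc were called here too, which is 44.4% of the 9 and 16.0% of the 25. Srebf1 (adjusted p 0.0467), Gstm2 (0.0436) and Lhx6 (0.0467) pass in the authors' deposited table for females and were not called here. In the authors' deposited table all 25 genes have the same sign as here; both rest on the same animals. The authors' deposited table for males gives the contrast in other animals. There 7 of the 25 genes pass an adjusted p under 0.05, against 22.9% of the genes tested here, and 23 of 25 have the same sign, against 58.5%. In the authors' deposited table for males, Esr1 has a log2 fold change of 0.01 (adjusted p 0.988), Bhlhe40 one of -0.80 (adjusted p 0.0492) and Gldc one of 1.13 (adjusted p 0.00168). Srebf1 has one of -1.57 there (adjusted p 0.000579), Gstm2 one of 1.06 (adjusted p 0.0397) and Lhx6 one of 0.20 (adjusted p 0.638). The difference between the sexes was not tested.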

How the data were processed

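Liver RNA was sequenced from stranded libraries of polyadenylated RNA, per the labels' protocols. The submitters' processing notes name edgeR, limma, R 3.4.3 and GRCm38.p5; no source used here names the aligner. The authors deposited an expected count (estimated count) for each gene, summed over merged lanes and not normalized, and for each sex a table of log2 fold changes, p-values and adjusted p-values. That gene table is misaligned as deposited: of its 51912 lines 17275 are filled under all columns, and the other 34637 hold 47 values each, under the first columns. In the filled lines the first male and first female columns had a Spearman correlation of 0.114, against 0.98 between the first 2 female columns, so the male columns do not hold the values of these genes. The female columns of the filled lines were used; the other lines and the 45 columns of males were not analysed here. Symbols and positions come from GENCODE M21 (17251 identifiers matched).

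Counts were rounded, filtered with filterByExpr, scaled by TMM and fitted with edgeR 4.0.16 (R 4.3.3) by its quasi-likelihood test on the 15 libraries, with Benjamini-Hochberg adjustment over 11849 genes and a threshold of 0.05. The interaction with age and the comparison with Low Amino Acid were fitted on their own groups. Levels are CPM on TMM-scaled totals; fold changes are fitted log2 values. Alternatives were DESeq2 1.42.0, limma 3.58.1 (voom), other scalings and filters, other sets of libraries, and each library left out in turn. The test was tried on simulated data for the comparison with Control. At a log2 change of 0.5 it recovered 17 of 65 changed genes. At a change of 1 it recovered 51 of 61, and at 2 it recovered 70 of 71, with 3 false calls in all. A gene not called can thus still have changed by about 0.5. Promoters on chromosome 18 were not searched for motifs. Tables and figures were made with Python 3.11.15 and matplotlib 3.10.9. Animals are the replicates as far as the labels show, and p-values set each difference against the spread between these samples.

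Genes named were, of called genes with a mean of at least 1 CPM, the 15 of largest fold change in each direction; per list, up to 4 called members or, with none, the 2 of smallest p; 15 genes followed in any case; and 5 per direction for the further comparisons. Cish, Mcm3, Mcm4, Mcm5, Mcm6, Ccnd2, Hsd3b5 and the clock genes other than Bhlhe40 were named after their values were seen. The comparison, the followed genes and the 43 lists (29 pathways, 14 cell types) were chosen with earlier results of these data known. None of the 13 mitochondrially encoded genes is in the lines used.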

Additional observations from a re-analysis of the deposited data

Results flagged for a closer look

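In all, 75 groups of libraries were examined (called and followed genes on the log2(CPM + 0.5) scale, and Kdm5d). Of these, 8 held a library far from the others of its group. By chance about 1 in 20 would be flagged, or 3.75 of 75. The flag of Kdm5d was known beforehand, so it cannot be set against that number. Kdm5d stood at 47.9 CPM in the library labelled Low Isoleucine replicate 3, against 0.0382 to 0.490 CPM in the other 7; it was left out for this reason. That library also had 67.8 CPM of Hsd3b5 and 333 CPM of Slco1a1, genes high in male mouse liver, while the 7 others had at most 2.07 and 42.6 CPM.

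Low Isoleucine replicate 8 was far from its group in Fgf21, with 0.757 CPM against 10.1 to 27.6, and in Ppargc1a, with 99.4 CPM against 40.7 to 58.4. Low Isoleucine replicate 5 had 469 CPM of Gldc, against 263 to 336 in the others. Low Isoleucine replicate 4 had 46.2 CPM of Cyp7a1, against 201 to 550.2. Control replicate 5 had 27.4 CPM of Cela1, against 9.96 to 16.1, and 45.8 CPM of Gstm2, against 17.6 to 25.9. Control replicate 6 had 5.25 CPM of Lhx6, against 1.62 to 2.86.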

How the results depend on the processing

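Against Control, 25 genes were called. With RLE or upper quartile scaling, or a minimum of 1 CPM, the same 25 genes were called, and without a filter 23 of them. In voom with quality weights 22 genes were called, 16 of the 25 among them. The count moved by over 1.5 times in other settings: 3 with replicate 3 included, 66 in a fit of all 3 groups at 6 months, 3 in a fit of all 6 female groups, and 190 with DESeq2, 68 of them higher, which called all 25. In voom with libraries of the same title number as a random block (consensus correlation 0.0825), 14 genes were called, 2 higher and 12 lower, with 12 of the 25 among them. Without Control replicate 7 and Low Isoleucine replicate 8 together, chosen after seeing the data, 7 were called, 6 of the 25 among them. With 1 library left out the count was 4 to 39. It fell by over 1.5 times without Control replicates 1, 4, 5 or 6 or Low Isoleucine replicates 2, 4, 5, 7 or 8, and rose by over 1.5 times without Low Isoleucine replicate 1. Esr1 was called in every setting tried, and Defb1 and Bhlhe40 in each fit with 1 library left out. No named gene that either fit called changed sign (0 under the alternatives run). The cause of these changes was not tested.

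The interaction with age gave 4 genes with DESeq2 and 2 with voom and quality weights. Against Low Amino Acid, where 200 genes were called, there were 115 with replicate 3 included, 2 in the fit of all 6 female groups and 615 with DESeq2. No paired analysis was possible because the replicate numbers follow accession order and pair no animals. Asns was removed by the filter on low counts and is given by its levels only.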
